A study of Homo sapiens with 8 samples.

Results

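The transcription factors that set and hold B cell identity were followed in Raji and Raji-4RH cells treated with chidamide or its vehicle. The group was fixed by gene symbol as 10 genes, namely PAX5, EBF1, POU2AF1, SPIB, BCL6, BACH2, IRF8, IRF4, PRDM1 and XBP1, out of 63967 labelled rows of the expression table. Values could be tied to 9 of the 10 labels. SPIB lies outside the 18143 labels whose values could be located, and it was not analysed here.

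Raji is a Burkitt lymphoma cell line that is sensitive to rituximab, the antibody against the B cell surface protein CD20, and Raji-4RH is a derivative of it that is resistant to rituximab. Each line was cultured for 24 h with DMSO, the vehicle, or with 3 μM chidamide, an oral histone deacetylase inhibitor. This gave 4 groups of 2 libraries each, named here Raji DMSO, Raji chidamide, Raji-4RH DMSO and Raji-4RH chidamide. All cells were at passage 2-3 and were harvested by flow sorting. Each line stands for 1 cell line only, so a difference between Raji-4RH and Raji is a difference between these cultures, and no source used here says that the 2 libraries of a group came from separate cultures. The p-values therefore measure the spread between these libraries, which may be technical.

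PAX5 and EBF1 commit lymphoid progenitors to the B lineage and keep the B cell programme on, with POU2AF1 as the coactivator of octamer-binding factors in B cells. In the germinal centre, the stage that Burkitt lymphoma resembles, BCL6, BACH2 and IRF8 hold the B cell state and restrain differentiation. IRF4, PRDM1 (Blimp-1) and XBP1 drive the opposite step, in which the B cell programme is shut down and the secretory apparatus of the plasma cell is built.

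The libraries held between 13991697 and 21193441 reads assigned to genes, with the lowest total in Raji-4RH chidamide replicate 1. The 2 libraries of that group also differed more from each other than those of any other group, by a chi-square of 15.9 per gene against 1.83 to 5.54. Without either of them, 7 members were still called in the Raji-4RH chidamide comparison. Levels are given as FPKM, fragments scaled by gene length and by the assigned reads of the library, a scale on which genes of different length can be set side by side. In the deposited table the values of many genes stand some rows below their labels, so each value was taken from the row where it was located and rescaled to the gene's own length. PRDM1, XBP1, POU2AF1, BACH2 and BCL6 sat in their own row, IRF4 and IRF8 lay 1 row lower, EBF1 3 rows lower and PAX5 12 rows lower. Within 200 rows of the 4 displaced members, 19 of 19 housekeeping genes then reached 10 FPKM and 28 of 28 olfactory, keratin and similar genes stayed under 1 FPKM, against 6 and 14 when values were read 1 row higher and 5 and 13 when read 1 row lower. The 6 B cell markers, CD79A, CD79B and CD22 among them, were all above 1 FPKM in every group, and their summed level ran from 1116 to 1163 FPKM in Raji DMSO and from 731.9 to 770.8 FPKM in Raji-4RH DMSO. With chidamide this sum was lower in each line, 997.2 to 1010 FPKM in Raji and 610.1 to 647.5 FPKM in Raji-4RH. The mean of CD79A fell from 556.1 to 289.9 FPKM in Raji and from 371 to 177.6 FPKM in Raji-4RH. That of MS4A1, the gene of CD20, rose from 56.25 to 123.8 FPKM in Raji and from 12.68 to 23.62 FPKM in Raji-4RH. CD22 rose from 81.93 to 135.4 FPKM in Raji and from 51.8 to 61.95 FPKM in Raji-4RH. The lower sum is thus not a fall of every marker. By the limma test described below, 2 of the 6 were called higher and 1 lower in Raji, beside 31.5% and 28.5% of all genes. In Raji-4RH 4 were called higher and 1 lower, beside 43.3% and 31.6% of all genes. Of the 6 myeloid markers, LYZ, CSF1R, ITGAM and CD33 reached 1 FPKM in Raji-4RH chidamide. The summed level of the 6 was 1.15 to 1.16 FPKM in Raji DMSO, 11.05 to 11.24 FPKM in Raji chidamide, 1.09 to 1.21 FPKM in Raji-4RH DMSO and 11.01 to 12.05 FPKM in Raji-4RH chidamide, with MPO and CD14 under 1 FPKM in all 4 groups. The 5 T cell, 4 fibroblast, 3 epithelial and 2 placed erythroid markers summed to at most 5.34, 2.37, 0.378 and 0.941 FPKM in any library. The T cell, fibroblast and erythroid sums were also higher with chidamide in each line, while the epithelial sum was lower with it in Raji. In Raji-4RH the T cell sum was 0.779 to 0.961 FPKM with DMSO and 4.39 to 5.34 FPKM with chidamide. In Raji the fibroblast sum was 0.147 to 0.199 FPKM with DMSO and 2.15 to 2.37 FPKM with chidamide. The part of these markers in the results below was not tested.

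Promoters are shown for IRF4, PRDM1 and BACH2, which were chosen after their values were seen because they had the largest fold differences in FPKM among the 9 members. The 250 bases before the annotated start come from RefSeq on GRCh38.p14, written 5′ to 3′ along the gene. Capitals mark matches on either strand to the GC box GGGCGG, the TATA box TATAAA and the cAMP response element TGACGTCA, and overlapping matches were counted separately.
IRF4, chr6:391502-391751, plus strand: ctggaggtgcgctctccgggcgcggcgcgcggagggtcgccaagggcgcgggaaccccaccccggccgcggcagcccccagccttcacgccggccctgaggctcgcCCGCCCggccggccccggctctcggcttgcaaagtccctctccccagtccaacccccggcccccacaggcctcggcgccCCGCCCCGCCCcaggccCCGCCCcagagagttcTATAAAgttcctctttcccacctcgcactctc
PRDM1, chr6:106086086-106086335, plus strand: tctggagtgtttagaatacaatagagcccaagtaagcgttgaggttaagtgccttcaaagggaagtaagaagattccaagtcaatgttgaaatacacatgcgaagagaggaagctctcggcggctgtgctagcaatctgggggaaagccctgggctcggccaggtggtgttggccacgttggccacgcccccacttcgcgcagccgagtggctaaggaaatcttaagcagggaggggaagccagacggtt
BACH2, chr6:90296844-90297093, minus strand: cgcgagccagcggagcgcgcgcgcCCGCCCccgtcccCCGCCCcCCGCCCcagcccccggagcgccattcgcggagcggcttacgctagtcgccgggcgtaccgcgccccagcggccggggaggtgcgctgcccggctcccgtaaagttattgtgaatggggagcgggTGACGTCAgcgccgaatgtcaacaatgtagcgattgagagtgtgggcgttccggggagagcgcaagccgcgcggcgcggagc

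The IRF4 window held 28 CpG dinucleotides, 4 GC boxes and 1 TATA box. The BACH2 window held 40 CpG, 3 GC boxes and 1 cAMP response element. The PRDM1 window held 11 CpG and no match to these letters, while the window at the other PRDM1 start held 1 GC box. Over 35116 promoter windows of the same length the median was 11 CpG, and 42.6%, 10.7% and 1.65% held the GC box, the TATA box and the cAMP response element. The IRF4 and BACH2 windows thus had more CpG than 84.1% and 97.8% of promoters, and PRDM1 was close to the median. A match of letters is a description and not a binding site. POU2AF1 had no entry in the promoter table.

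**Figure D1:**
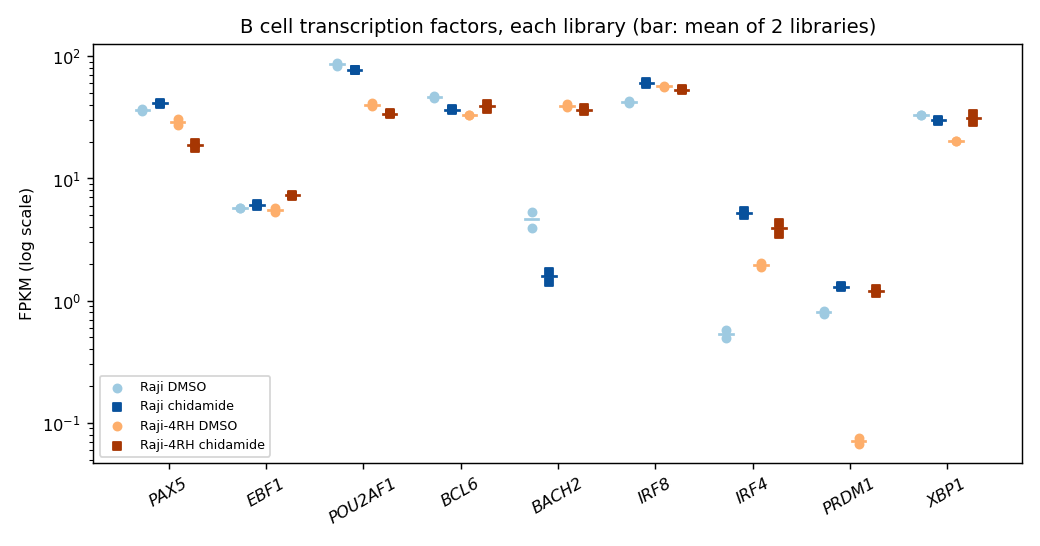
Level of 9 B cell transcription factors in each of the 8 libraries, in FPKM on a log axis, with circles for DMSO, squares for chidamide and a bar at the mean of the 2 libraries of a group. BACH2 is between 1.43 and 5.36 FPKM in the 4 Raji libraries and between 35.4 and 40.6 FPKM in the 4 Raji-4RH libraries, and PRDM1 is at 0.075 and 0.067 FPKM in Raji-4RH DMSO.

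In Raji DMSO, POU2AF1 had the highest level of the 9 members at 85.9 ± 3.10 FPKM (SD, n = 2), followed by BCL6, IRF8, PAX5 and XBP1 between 46.6 and 33.3 FPKM. EBF1 at 5.73 FPKM and BACH2 at 4.63 FPKM were lower, and PRDM1 at 0.799 FPKM and IRF4 at 0.535 FPKM were at the bottom. No neighbours in this order had overlapping libraries, with 2 libraries each. In Raji-4RH DMSO the order was IRF8, POU2AF1, BACH2, BCL6, PAX5, XBP1, EBF1, IRF4 and PRDM1, from 56.9 to 0.071 FPKM, and the libraries of POU2AF1 and BACH2 overlapped. After chidamide, Raji kept POU2AF1 first, with IRF8 at 60.6 FPKM above PAX5 and BCL6, and PRDM1 was last at 1.30 FPKM. In Raji-4RH chidamide IRF8 was first at 53.1 FPKM, the libraries of BCL6 and BACH2 overlapped, and PAX5 stood below XBP1. The plot of levels by library shows these orders.

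The next question was how chidamide changed these factors in the resistant line. In Raji-4RH, chidamide raised PRDM1, IRF4, XBP1, EBF1 and BCL6 and lowered PAX5 and POU2AF1. The test was limma on log2(FPKM + 1) over 10710 genes with Benjamini-Hochberg adjustment, called at 0.05, and differences below are on that scale unless FPKM is named. With 2 libraries a group the smallest p of an exact permutation test of a single gene is 0.333. Of the 9 members, 5 were called higher and 2 lower, and of all genes tested 74.9% were called, 43.3% higher and 31.6% lower. The members' count is therefore close to that of all genes. Their median difference was 0.23, beside 0.09 for all genes. PRDM1 entered the test only through the chidamide libraries, because it was under 1 FPKM in all 4 DMSO libraries. Its call therefore adds nothing to the count of rises. The members' median also includes PRDM1, so its place above that of all genes is not read as a shift of the members.

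The same treatment of sensitive Raji cells gave another pattern. Chidamide raised IRF4, IRF8 and PRDM1 and lowered BACH2, BCL6 and POU2AF1. This is 3 members called higher and 3 lower, beside 60.0% of all genes called, 31.5% higher and 28.5% lower. PRDM1, which passed the filter only through the chidamide libraries, again adds nothing to the count of rises. The median difference was 0.07 for the 9 members and 0.02 for all genes. PRDM1 is also part of the members' median here. The place of that median above the median of all genes is therefore not read as a shift of the members. The difference between the lines was tested as an interaction, the Raji-4RH change minus the Raji change. It was called for 8 of the 9 members, 5 of them more positive and 3 more negative in Raji-4RH, against 48.8% of all genes, 27.2% more positive and 21.7% more negative. The 5 include PRDM1, which was tested only because of its chidamide libraries. POU2AF1 was the member without a called interaction.

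**Figure D2:**
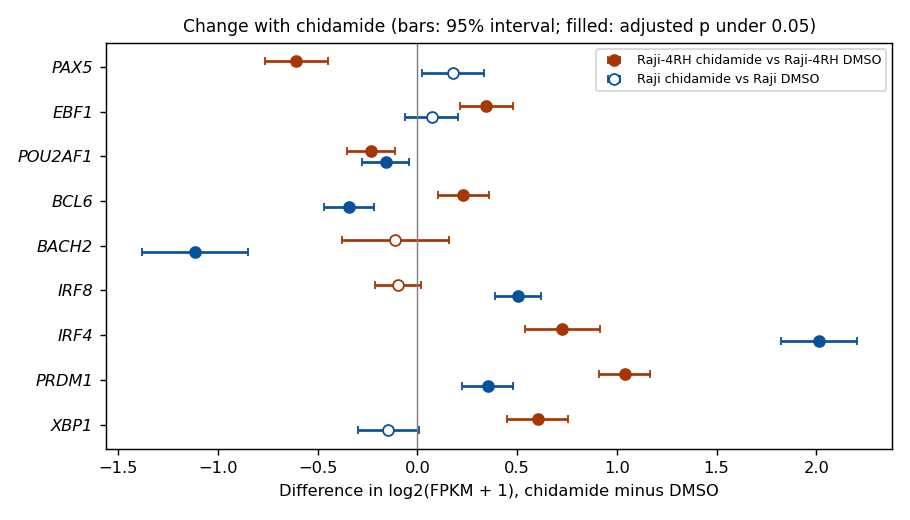
Difference in log2(FPKM + 1) between chidamide and DMSO for 9 members, in Raji-4RH (orange) and Raji (blue), with 95% intervals from limma and filled points where the adjusted p was under 0.05. BCL6 is the member called in opposite directions in the 2 lines, at 0.23 in Raji-4RH and -0.34 in Raji, while the fall of POU2AF1 in Raji-4RH moved to 0.006 under quantile normalization.

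PAX5, the factor that maintains B cell commitment (chromosome 9, 36833275 to 37034185, minus strand, GENCODE 29 on GRCh38), measured 35.7 and 36.7 FPKM in the Raji DMSO libraries and 40.6 and 41.6 FPKM with chidamide. In Raji-4RH it measured 27.4 and 30.6 FPKM with DMSO and 17.8 and 19.5 FPKM with chidamide. All 4 Raji-4RH values lay below all 4 Raji values, and the chidamide libraries were the lowest of the 8. The fall in Raji-4RH was 1.55-fold in FPKM, a difference of -0.61 ± 0.07 (SE, adjusted p = 5.7e-05). In Raji the difference was 0.18 ± 0.07 (95% interval 0.02 to 0.34) with an adjusted p of 0.0512, and it was under the threshold in 8 alternative settings. The interaction was -0.79 (adjusted p = 3.5e-04).

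EBF1, the pioneer factor that acts with PAX5 (chromosome 5, 158695916 to 159099761, minus strand), stayed in a narrow range. Its levels were 5.74 and 5.73 FPKM in Raji DMSO, 6.24 and 5.92 FPKM in Raji chidamide, 5.32 and 5.74 FPKM in Raji-4RH DMSO and 7.23 and 7.34 FPKM in Raji-4RH chidamide. The Raji-4RH chidamide libraries were the highest, and the DMSO libraries of the 2 lines overlapped. EBF1 rose 1.32-fold with chidamide in Raji-4RH (0.34 ± 0.06, adjusted p = 6.7e-04), and in Raji the difference was 0.07 (95% interval -0.06 to 0.20, adjusted p = 0.318). Its interaction of 0.27 had an adjusted p of 0.0246, which went up to 0.0983 without Raji chidamide replicate 2, to 0.0914 without Raji-4RH DMSO replicate 1 and to 0.0589 without either Raji DMSO library. PAX5 and EBF1 thus changed in opposite directions in Raji-4RH.

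POU2AF1 (chromosome 11, 111352252 to 111455630, minus strand) separated the lines more than the treatments. It measured 88.1 and 83.7 FPKM in Raji DMSO, 77.0 and 76.5 FPKM in Raji chidamide, 39.2 and 41.1 FPKM in Raji-4RH DMSO and 33.7 and 34.3 FPKM in Raji-4RH chidamide. Each Raji library was above each Raji-4RH library, and within each line both chidamide libraries were below both DMSO libraries. The fall with chidamide was 1.18-fold in Raji-4RH (-0.23 ± 0.05, adjusted p = 0.00329) and 1.12-fold in Raji (-0.16 ± 0.05, adjusted p = 0.0274). Under quantile normalization neither fall was called, with differences of 0.006 (adjusted p = 0.924) in Raji-4RH and -0.04 (adjusted p = 0.492) in Raji. The Raji fall also lost its call without Raji DMSO replicate 1 (adjusted p = 0.139), without Raji chidamide replicate 1 (adjusted p = 0.109) and without Raji chidamide replicate 2 (adjusted p = 0.129). The interaction was -0.07 (95% interval -0.24 to 0.09, adjusted p = 0.434).

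BCL6, the repressor that defines the germinal centre B cell (chromosome 3, 187721377 to 187745727, minus strand), measured 47.6 and 45.7 FPKM in Raji DMSO and 36.5 and 36.7 FPKM in Raji chidamide. In Raji-4RH it measured 33.1 and 32.9 FPKM with DMSO and 37.4 and 40.5 FPKM with chidamide. The DMSO libraries of Raji were the highest and those of Raji-4RH the lowest, with the chidamide libraries of both lines in between. BCL6 fell 1.27-fold in Raji (-0.34 ± 0.05, adjusted p = 8.3e-04) and rose 1.18-fold in Raji-4RH (0.23 ± 0.05, adjusted p = 0.00465). The interaction was 0.57 ± 0.08 (adjusted p = 5.6e-04).

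BACH2, a repressor that delays plasma cell differentiation (chromosome 6, 89926529 to 90296908, minus strand), was far higher in Raji-4RH. It measured 5.36 and 3.90 FPKM in Raji DMSO and 1.43 and 1.73 FPKM in Raji chidamide, against 38.4 and 40.6 FPKM in Raji-4RH DMSO and 35.4 and 37.6 FPKM in Raji-4RH chidamide. No Raji library came near a Raji-4RH library, and in Raji the treated libraries lay below the controls. BACH2 fell 2.93-fold with chidamide in Raji (-1.12 ± 0.12, adjusted p = 7.6e-05), with 1803 reads over the 2 DMSO libraries and 640 over the 2 chidamide libraries. In Raji-4RH the difference was -0.11 (95% interval -0.38 to 0.16, adjusted p = 0.410). The interaction was 1.01 ± 0.16 (adjusted p = 0.00146). The window printed for BACH2 is the CpG-rich promoter of a gene that was high in one line and low in the other.

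IRF8, which acts with PU.1 in germinal centre B cells (chromosome 16, 85898803 to 85922609, plus strand), measured 43.4 and 41.5 FPKM in Raji DMSO, 59.5 and 61.6 FPKM in Raji chidamide, 56.3 and 57.6 FPKM in Raji-4RH DMSO and 53.6 and 52.6 FPKM in Raji-4RH chidamide. The Raji DMSO libraries stood below the other 6. IRF8 rose 1.43-fold with chidamide in Raji (0.50 ± 0.05, adjusted p = 6.1e-05). In Raji-4RH the difference was -0.10 (95% interval -0.21 to 0.02, adjusted p = 0.108), and it was called at 0.20 under quantile normalization (adjusted p = 0.00602) and at -0.17 with each library centred on its median (adjusted p = 0.0180). The interaction was -0.60 ± 0.07 (adjusted p = 2.9e-04).

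IRF4, which at high level turns B cells toward the plasma cell (chromosome 6, 391739 to 411447, plus strand), measured 0.498 and 0.572 FPKM in Raji DMSO and 5.04 and 5.36 FPKM in Raji chidamide. In Raji-4RH it measured 2.03 and 1.89 FPKM with DMSO and 3.54 and 4.29 FPKM with chidamide. Each treated library was above each untreated one, and the untreated libraries of Raji were the lowest. The rise was 9.72-fold in Raji (2.01 ± 0.08, adjusted p = 5.6e-07), from 126 reads over the 2 DMSO libraries to 1271 with chidamide. It was 2.00-fold in Raji-4RH (0.73 ± 0.08, adjusted p = 5.9e-05). The interaction of -1.29 ± 0.12 had an adjusted p of 7.5e-05. Read from the row of its label as deposited, IRF4 would have an interaction of 0.71, so this result rests on the row displacement described above.

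PRDM1, the repressor that switches off PAX5, BCL6 and other B cell genes in plasma cells (chromosome 6, 106086320 to 106109939, plus strand), was low in all libraries. It measured 0.819 and 0.779 FPKM in Raji DMSO, 1.31 and 1.28 FPKM in Raji chidamide, 0.075 and 0.067 FPKM in Raji-4RH DMSO and 1.25 and 1.16 FPKM in Raji-4RH chidamide. The Raji-4RH DMSO libraries held 9 reads each, and the 4 treated libraries of both lines lay close together above the controls. From 18 reads to 247 reads over the 2 libraries, the rise in Raji-4RH was 16.9-fold (95% exact binomial interval 10.5 to 29.01, counting error only), and its difference on the log2(FPKM + 1) scale, which understates changes of low genes, was 1.04 ± 0.06 (adjusted p = 7.5e-07). Under quantile normalization this difference was 0.28 (adjusted p = 0.00544). In Raji it rose 1.62-fold (0.35 ± 0.06, adjusted p = 7.7e-04), but under quantile normalization this difference was 0.0068 (adjusted p = 0.940). The interaction was 0.69 ± 0.08 (adjusted p = 2.4e-04), and 0.27 under quantile normalization (adjusted p = 0.0446).

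XBP1, the factor of the unfolded protein response that builds the secretory apparatus (chromosome 22, 28794555 to 28800597, minus strand), measured 33.2 and 33.3 FPKM in Raji DMSO, 29.7 and 30.3 FPKM in Raji chidamide, 20.2 and 20.2 FPKM in Raji-4RH DMSO and 29.1 and 33.5 FPKM in Raji-4RH chidamide. The Raji-4RH DMSO libraries were the lowest by a wide gap, and the treated libraries of both lines overlapped. XBP1 rose 1.55-fold in Raji-4RH (0.60 ± 0.07, adjusted p = 5.3e-05). In Raji the difference was -0.15 (95% interval -0.30 to 0.01, adjusted p = 0.0933), and it was called as a fall with each library centred on its median (adjusted p = 0.0254), with only the Raji libraries in the fit (adjusted p = 0.0167) and without either Raji-4RH chidamide library (adjusted p = 0.00882 and 0.00886). The interaction was 0.75 ± 0.09 (adjusted p = 4.0e-04). The values count all transcripts of the gene, so the spliced, active form of XBP1 cannot be told from the unspliced form.

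The lines were also compared with each other, first with DMSO. BACH2, IRF4 and IRF8 were higher in Raji-4RH, and POU2AF1, PRDM1, XBP1, BCL6 and PAX5 were lower, which makes 3 members called higher and 5 lower. Of all genes 73.6% were called, 41.2% higher and 32.4% lower in Raji-4RH, so most of the genes tested also differed between the lines. BACH2 was 8.53-fold higher in FPKM (2.86 ± 0.12, adjusted p = 1.2e-07) and IRF4 3.66-fold higher (0.95 ± 0.08, adjusted p = 1.2e-05). POU2AF1 was 2.14-fold lower (-1.08 ± 0.05, adjusted p = 3.2e-07) and XBP1 1.64-fold lower (-0.69 ± 0.07, adjusted p = 2.4e-05). PRDM1 was 11.3-fold lower over 18 against 203 reads (95% exact binomial interval 6.97 to 19.4, counting error only). EBF1 differed by -0.05 (95% interval -0.18 to 0.09, adjusted p = 0.502).

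With chidamide in both lines, the comparison came out differently. BACH2 and EBF1 were higher in Raji-4RH, and POU2AF1, PAX5, IRF4 and IRF8 were lower. This is 2 members called higher and 4 lower, beside 79.3% of all genes, 44.3% higher and 35.0% lower. BACH2 was then 23.1-fold higher (3.86 ± 0.12, adjusted p = 1.9e-08) and PAX5 2.20-fold lower (-1.10 ± 0.07, adjusted p = 1.2e-06). IRF8 was 1.14-fold lower (-0.19 ± 0.05, adjusted p = 0.00845), a difference that was 0.04 (adjusted p = 0.418) under quantile normalization and lost its call without Raji chidamide replicate 2 (adjusted p = 0.0749). The difference of EBF1, 0.23 ± 0.06 (adjusted p = 0.00622), lost its call under quantile normalization (adjusted p = 0.0544) and without the same library (adjusted p = 0.0537).

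BCL6, PRDM1 and XBP1 had been lower in untreated Raji-4RH and were not called different after chidamide. The remaining differences were 0.09 for BCL6 (95% interval -0.04 to 0.21), -0.06 for PRDM1 (-0.19 to 0.07) and 0.06 for XBP1 (-0.10 to 0.21). These intervals bound the differences and do not show that the lines were equal. Under quantile normalization all 3 were called, at 0.27, -0.66 and 0.22. BCL6 and XBP1 were also called without Raji-4RH chidamide replicate 1, at 0.14 (adjusted p = 0.0219) and 0.16 (adjusted p = 0.0133).

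**Figure D3:**
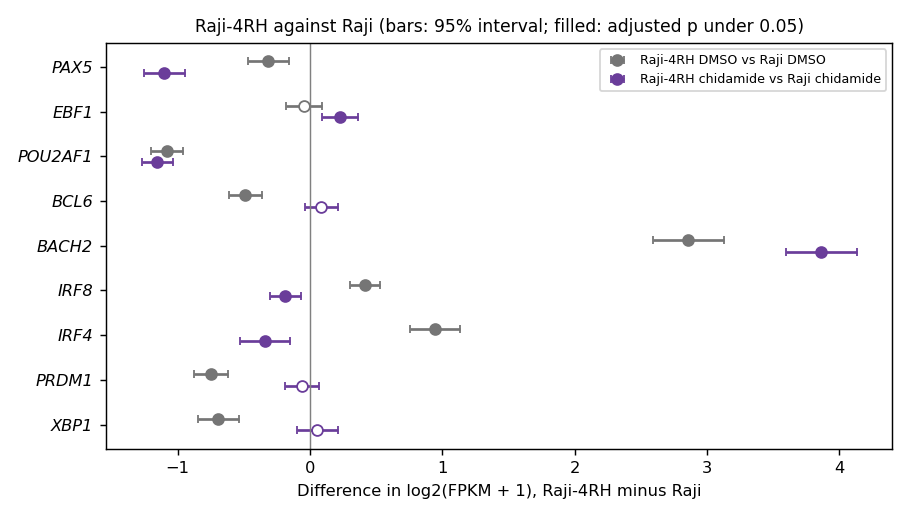
Difference in log2(FPKM + 1) between Raji-4RH and Raji for 9 members, with DMSO (grey) and with chidamide (purple), with 95% intervals from limma and filled points where the adjusted p was under 0.05. BACH2 stands apart at 2.86 and 3.86, and BCL6, PRDM1 and XBP1 move from called negative differences to open points near 0, which quantile normalization called at 0.27, -0.66 and 0.22.

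The genes around these factors were described with 6 lists, by how many were called and by their median. The lists were drawn from general knowledge, but with earlier results of these data known. The counts stand beside 74.9% of all genes called in Raji-4RH (43.3% higher, 31.6% lower) and 60.0% in Raji (31.5% higher, 28.5% lower), and the medians beside 0.09 and 0.02. A change of scale matters for these medians. Quantile normalization moved the median of all genes in the Raji-4RH chidamide comparison from 0.09 to -0.02, and the share of called genes that were higher from 57.9% to 47.8%.

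Among 19 other B lineage factors, 9 rose and 9 fell in Raji-4RH and 8 rose and 5 fell in Raji, against 74.9% and 60.0% of all genes called. The medians were -0.25 and 0.11, beside 0.09 and 0.02 for all genes, and under quantile normalization both changed sign, to 0.03 and -0.005. TCF4, an E protein, and FOXO1, the forkhead factor of B cell development, rose in both lines. TCF4 went from 1.89 to 5.05 FPKM in Raji-4RH and from 3.38 to 6.33 FPKM in Raji, and FOXO1 from 10.9 to 23.9 FPKM and from 9.88 to 16.5 FPKM. The largest falls were IKZF3 (Aiolos) from 27.6 to 8.97 FPKM and MYB from 11.5 to 3.54 FPKM in Raji-4RH. In Raji they were SPI1 (PU.1) from 66.6 to 35.6 FPKM and NFATC1 from 14.01 to 7.65 FPKM. Each of these genes also fell in the other line. IKZF3 went from 39.6 to 25.2 FPKM and MYB from 6.97 to 3.97 FPKM in Raji. SPI1 went from 52.6 to 22.7 FPKM and NFATC1 from 22.8 to 13.6 FPKM in Raji-4RH.

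Of 16 targets of PAX5 and EBF1, 15 passed the filter. In Raji-4RH 7 rose and 5 fell, with a median of 0.01, and in Raji 5 rose and 7 fell, with a median of -0.03. Thus 12 of 15 were called in each line, beside 74.9% and 60.0% of all genes. Quantile normalization put these medians at 0.14 and -0.05, and centring each library on its median put the first at -0.06. CD79A, the signalling chain of the B cell receptor, fell in both lines, from 371 to 178 FPKM in Raji-4RH and from 556 to 290 FPKM in Raji. BLNK, the adaptor downstream of it, fell from 11.6 to 4.08 FPKM and from 11.3 to 5.69 FPKM. FCER2 (CD23) rose in both, from 0.0423 to 4.23 FPKM in Raji-4RH and from 5.36 to 22.9 FPKM in Raji. VPREB3 rose from 16.2 to 42.0 FPKM in Raji-4RH but fell from 42.3 to 28.4 FPKM in Raji. CR2, the complement receptor CD21, rose from 32.4 to 126 FPKM in Raji. In Raji-4RH CR2 measured 0.103 FPKM with DMSO and 0.114 FPKM with chidamide.

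Of 19 germinal centre genes, 17 could be placed and 16 were tested, and S1PR2 and MEF2B were not analysed here. In Raji-4RH 6 rose and 9 fell, with a median of -0.28 that was -0.09 under quantile normalization. In Raji 7 rose and 7 fell, with a median of 0.00 that was -0.04 with each library centred on its median. The totals were 15 and 14 of 16, beside 74.9% and 60.0% of all genes. STAP1 rose from 18.8 to 46.4 FPKM in Raji-4RH and from 47.6 to 99.6 FPKM in Raji. MME (CD10) fell in both lines, from 23.5 to 9.57 FPKM in Raji-4RH and from 17.3 to 5.85 FPKM in Raji. LRMP fell from 97.2 to 36.8 FPKM in Raji-4RH. In Raji, the chemokine receptor CXCR5 rose from 2.86 to 11.1 FPKM, LMO2 rose from 3.39 to 11.3 FPKM and ELL3 fell from 17.9 to 8.20 FPKM. In Raji-4RH, CXCR5 also rose, from 1.28 to 2.21 FPKM, and ELL3 also fell, from 9.12 to 4.67 FPKM. LMO2 went the other way there, from 33.8 to 26.0 FPKM.

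Of 14 genes known to be repressed by BCL6, 13 were placed (CCL3 was not analysed here) and 10 were tested. In Raji-4RH 6 rose and 3 fell, and in Raji 6 rose and 1 fell, while 43.3% and 31.5% of all genes rose and 31.6% and 28.5% fell. The medians were 0.67 and 1.10, beside 0.09 and 0.02 for all genes, which quantile normalization moved to 0.31 and 0.88. CDKN1A, the p21 inhibitor of cell cycle kinases, rose from 30.7 to 165 FPKM in Raji-4RH and from 10.4 to 51.5 FPKM in Raji. ID2, an inhibitor of E proteins, rose from 15.3 to 68.6 FPKM in Raji-4RH and from 2.01 to 8.31 FPKM in Raji. The activation antigen CD69 rose from 0.834 to 3.36 FPKM in Raji-4RH and from 0.629 to 6.71 FPKM in Raji. CD69 entered the test only through the chidamide libraries, so its call adds nothing to the count of rises. CHEK1, the checkpoint kinase, fell in both lines, from 14.3 to 2.52 FPKM in Raji-4RH and from 13.5 to 7.43 FPKM in Raji. NFKB1 fell from 10.95 to 8.54 FPKM in Raji-4RH. BCL6 itself had risen in Raji-4RH and fallen in Raji.

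Of 28 plasma cell and secretory genes, 27 were tested. In Raji-4RH 10 rose and 12 fell, with a median of -0.02 that was 0.05 under quantile normalization. In Raji 4 rose and 16 fell, with a median of -0.30, where 31.5% of all genes rose and 28.5% fell with a median of 0.02. ERN1, the IRE1 kinase that splices XBP1 RNA, rose from 1.66 to 4.34 FPKM in Raji-4RH and from 3.34 to 4.67 FPKM in Raji. ELL2, the elongation factor of immunoglobulin secretion, rose from 0.972 to 3.94 FPKM in Raji-4RH, having entered the test only through the chidamide libraries, and HSP90B1, a chaperone of the endoplasmic reticulum, rose from 61.1 to 93.7 FPKM in Raji. MANF and SDF2L1, which are targets of the unfolded protein response, fell in both lines. MANF went from 27.0 to 11.4 FPKM in Raji-4RH and from 59.4 to 25.9 FPKM in Raji, and SDF2L1 from 79.7 to 35.5 FPKM and from 103 to 52.1 FPKM. The rise of PRDM1 and XBP1 in Raji-4RH was thus measured beside both rises and falls in this list.

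Among 18 corepressors and dimer partners of the members, 16 were tested. In Raji-4RH 8 rose and 3 fell, with a median of 0.27, and in Raji 7 rose and 2 fell, with a median of 0.11. The totals of 11 and 9 of 16 stand beside 74.9% and 60.0% of all genes called. BATF, which pairs with IRF4 and IRF8 on composite sites, rose from 0.586 to 3.16 FPKM in Raji-4RH and from 7.06 to 13.9 FPKM in Raji. BCORL1 rose from 2.00 to 4.89 FPKM in Raji-4RH, and TLE3, a Groucho corepressor, from 7.34 to 14.7 FPKM in Raji. MAFG and MAFK, small MAF proteins that dimerise with BACH2, fell from 16.7 to 12.8 FPKM in Raji-4RH and from 22.0 to 18.4 FPKM in Raji, respectively. SIN3A fell from 6.57 to 5.41 FPKM in Raji-4RH, and MTA3, a partner of BCL6, from 13.1 to 9.09 FPKM in Raji.

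**Figure D4:**
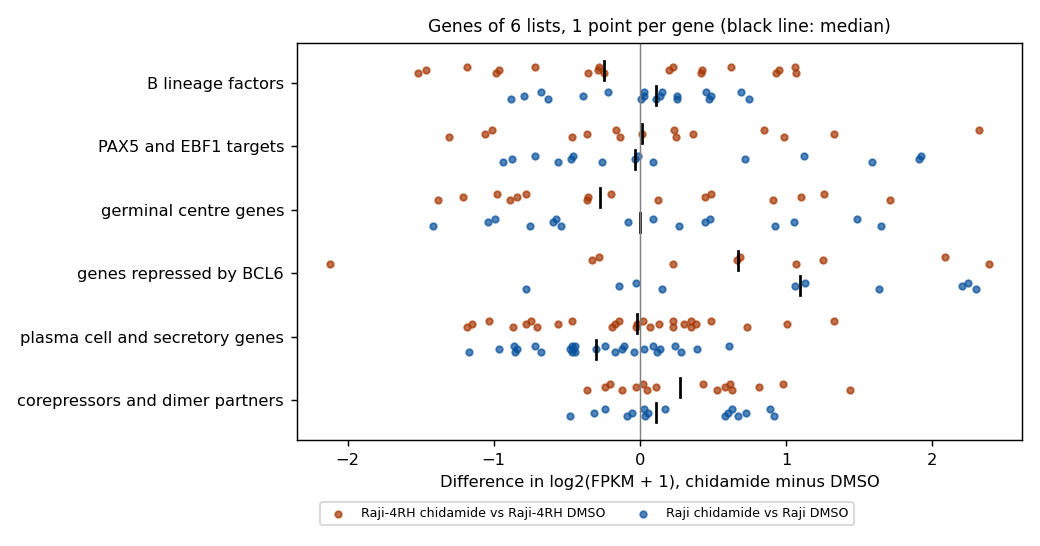
Difference in log2(FPKM + 1) between chidamide and DMSO for each tested gene of 6 lists, in Raji-4RH (orange) and Raji (blue), with a black line at the median of each list. Genes repressed by BCL6 have medians of 0.67 and 1.10, and the other lists have medians between -0.30 and 0.27, of which those of the B lineage factors in both lines and of the plasma cell genes in Raji-4RH change sign under quantile normalization, and those of the PAX5 and EBF1 targets in Raji-4RH and the germinal centre genes in Raji with each library centred on its median.

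Lastly, the genes whose pattern over the 8 libraries was most like that of each member were sought among genes whose mean level reached 5 FPKM, by Pearson's r of log2(FPKM + 1). These are descriptions over 4 groups of 2 libraries, and points of one group share line and treatment. For PAX5 they were ARHGDIB (r = 0.99), at 326 FPKM in Raji-4RH DMSO and 245 FPKM with chidamide, and CSK (r = 0.99), at 75.2 and 45.5 FPKM. For IRF4, ADD1 (r = 1.00 to 2 decimals) went from 4.94 to 10.6 FPKM in Raji and from 6.74 to 9.18 FPKM in Raji-4RH. PRDM1 was most like ABRACL (r = 1.00) and ACBD4 (r = 1.00), and ACBD4 measured 1.03 FPKM in Raji-4RH DMSO and 9.73 FPKM with chidamide.

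BACH2 was most like RAB3GAP1 (r = 1.00) and NMB (r = 0.99), which measured 1.67 FPKM in Raji DMSO and 12.6 FPKM in Raji-4RH DMSO. POU2AF1 was most like BAX (r = 1.00), at 60.0 FPKM in Raji DMSO and 12.2 FPKM in Raji-4RH DMSO, and IQGAP1 (r = 1.00). The other pairs were RGP1 and ICAM2 for EBF1 (r = 0.99 and 0.98), LHFPL6 and INPP5A for BCL6 (r = 0.98 and 0.97), NSFL1C and FDFT1 for IRF8 (r = 0.97 and 0.97) and SPTAN1 and SH3TC1 for XBP1 (r = 0.99 and 0.99). Among the members themselves, POU2AF1 and BACH2 had r = -0.93, PAX5 and POU2AF1 r = 0.89, and PRDM1 and XBP1 r = 0.86.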

How the data were processed

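RNA of Raji and Raji-4RH cells was sequenced in 8 libraries (NEBNext Ultra kit, Illumina sequencing), and 4 groups of 2 were formed from the cell line and treatment labels. The authors deposited 1 table of FPKM values, and their processing notes name hg38, HISAT2 2.0.5, SAMtools 1.7, HTSeq 0.9.1 and DESeq2 1.22.2. Strand handling is not given in the sources used here, so reads of antisense genes that overlap 0.857% to 5.36% of the exon bases of PAX5, POU2AF1, BACH2 and BCL6 cannot be told apart from theirs.

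The deposited FPKM values stand below their labels by a number of rows that grows down the table, and the last 662 of 63967 rows repeat the first 662. Values were moved to their labels with a table of row displacements (18143 labels) and rescaled by gene length, which placed 90.7% to 93.2% of the reads. Multiplied by length and library total, 100% of the non-zero values gave whole reads within 0.05. Depth was 13991697 to 21193441 reads. Columns of single samples that were left unused number 0.

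Genes that reached 1 FPKM in 2 or more libraries (10710, among them 9 of 9 placed members) were tested as log2(FPKM + 1) in limma 3.58.1 (R 4.3.3; moderated two-sided test with trend, all 8 libraries in 1 fit, Benjamini-Hochberg over all genes, called at 0.05). The fit was tested on simulated data with the same spread in every group. That simulation does not test the fit under the unequal spread of these groups. Intervals of read ratios are 95% exact binomial intervals. Replicates differed by more than counting error in each group, and no library was a copy of another. The alternatives were a pseudocount of 0.1, other filters, scalings and fits, a replicate block, each library left out, voom on the recovered reads and the rows as deposited. The check of housekeeping and tissue genes near displaced members was chosen after seeing the data. Python 3.11.15, pandas 2.3.3 and matplotlib 3.10.9 were used, with GENCODE 29 for gene positions.

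Named genes were all members, the 2 genes most like each, and in each list the 2 largest called rises and falls per chidamide comparison. The members and lists were chosen with earlier results of these data known. SPIB is not analysed here, and some genes that the rule names are not reported here.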

Additional observations from a re-analysis of the deposited data

Results flagged for a closer look

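For 8 of the 9 members the change with chidamide differed between the lines by the interaction term of the limma fit, beside 48.8% of all genes tested. The 8 include PRDM1, which passed the filter only through the chidamide libraries. The Raji-4RH change minus the Raji change was -1.29 for IRF4, -0.79 for PAX5 and -0.60 for IRF8. It was 1.01 for BACH2, 0.75 for XBP1, 0.69 for PRDM1, 0.57 for BCL6 and 0.27 for EBF1. BCL6 was called in both lines in opposite directions. PAX5, EBF1 and XBP1 were called in Raji-4RH and not in Raji, and BACH2 and IRF8 in Raji and not in Raji-4RH. IRF4 and PRDM1 rose in both by unequal amounts. For some members this sorting turns on the threshold. The limma fit gave PAX5 in Raji an adjusted p of 0.0512. PAX5 and XBP1 in Raji, and IRF8 in Raji-4RH with either sign, were called in some alternative settings. The EBF1 interaction depended on single libraries, as given above. The PRDM1 interaction is on the log2(FPKM + 1) scale, on which its 9 reads in each Raji-4RH DMSO library weigh little. It was 2.29 with a pseudocount of 0.1, 3.31 with voom on the recovered reads and 0.27 under quantile normalization (adjusted p = 0.0446).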

How the results depend on the processing

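Quantile normalization turned 5 of 45 member differences, namely POU2AF1, BACH2 and IRF8 with chidamide in Raji-4RH (0.006, 0.142 and 0.195), the POU2AF1 interaction (0.0491) and IRF8 between the treated lines (0.0436). Centring each library on its median turned XBP1 between the treated lines (-0.0228). Leaving out 1 library at a time, where the lone library of a group is assumed to vary like the others, this difference ran from -0.0418 to 0.155 and that of EBF1 between the DMSO groups from -0.0922 to 0.0021. Read from the rows as deposited, IRF4 turned to 0.706 in the interaction, -0.313 between the DMSO groups and 0.394 between the treated lines, and the members called became 5 in the interaction and 3 between the treated lines, with PAX5, EBF1 and IRF8 then without tested values, which takes 3 members out of these counts. The pseudocount of 0.1, limma without trend, no filter and the filter on the mean changed no member's call, but the last leaves PRDM1 without a value. Voom on the recovered reads called PAX5 in Raji as well (adjusted p = 0.0317).

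Whether the replicate numbers pair the libraries is not known, and no source says that a number marks a shared batch. Deviations from group means of same-numbered libraries correlated at -0.279 to 0.166 over genes, which cannot settle it with 2 libraries a group. With the number as a replicate block, PAX5 in Raji passed (adjusted p = 0.0349), POU2AF1 in Raji did not (adjusted p = 0.0512), and 7 members were called in Raji-4RH as without the block. No other member's call changed. The depth of PRDM1 in Raji-4RH DMSO, 9 reads per library, limits its fold change there.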
